A study of Mus musculus with 6 samples.

Results

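The 10 genes described here encode secreted Wnt proteins (Wnt2, Wnt2b, Wnt4, Wnt5a, Wnt5b, Wnt6, Wnt9a, Wnt9b and Wnt11) and R-spondin 3 (Rspo3), and were followed in mouse liver cells that were quiescent, activated in culture, or activated and treated with an inhibitor. They were taken by symbol: each has 1 probe set (the group of array probes that reports a gene) with a single gene symbol in the platform's annotation, so 10 of 22180 measured genes are members. The cells were primary hepatic stellate cells, the retinoid-storing pericytes of the liver sinusoid, which become matrix-producing myofibroblasts in culture. For every sample, cells of 5 mice were pooled. Culture-activated cells had been kept on plastic for more than 20 days, with fresh medium every 5 days, and received C-82 at 10 µM (samples labelled PRI-724) or vehicle, DMSO being the solvent of C-82. Quiescent cells were taken 12 h after plating and received nothing. Each state was sampled from old mice, aged 6 to 9 months, and from young mice, aged 8 to 11 weeks, which made 6 groups with 1 array each. PRI-724 is converted in the body to C-82, which blocks the binding of beta-catenin to its coactivator CBP; how long cells were exposed to it is not stated in the labels. No genotype, strain or sex is given there, and all groups share the same culture medium and plastic.

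Wnt proteins are lipid-modified signals that act over short distances on Frizzled receptors and their co-receptors. Some of them stabilise beta-catenin, which then drives target genes in the nucleus, and others act through routes that do not need beta-catenin. R-spondins do not open the receptor themselves: they bind Lgr receptors and remove the ubiquitin ligases Znrf3 and Rnf43 from the membrane, which leaves more Frizzled at the surface. In mouse liver, endothelial cells around the central vein are the known source of Wnt2, Wnt9b and Rspo3, which keep nearby hepatocytes in the pericentral programme, and stellate cells are a further known source of Rspo3. On that background Wnt2, Wnt9b and Rspo3 are grouped below as endothelial-type ligands. Wnt2b, Wnt4, Wnt5a, Wnt5b and Wnt11, best known from fibroblasts and other mesenchymal cells, are grouped as mesenchymal-type ligands, and Wnt6 and Wnt9a were put in neither group.

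Promoter sequences, from RefSeq on the mouse build GRCm38.p6, are shown for the endothelial-type ligand that changed most, Wnt2, and for Wnt9b, the endothelial-type ligand with the narrowest range over the arrays. Each window runs 5′ to 3′ along the gene's own strand, from 250 bases before to 50 bases after the annotated start, at chr6:18030396-18030695 (minus strand) for Wnt2 and chr11:103749772-103750071 (minus strand) for Wnt9b. Capitals mark letters that match the GATA motif on either strand, which is GATA preceded by A or T and followed by A or G.
Wnt2: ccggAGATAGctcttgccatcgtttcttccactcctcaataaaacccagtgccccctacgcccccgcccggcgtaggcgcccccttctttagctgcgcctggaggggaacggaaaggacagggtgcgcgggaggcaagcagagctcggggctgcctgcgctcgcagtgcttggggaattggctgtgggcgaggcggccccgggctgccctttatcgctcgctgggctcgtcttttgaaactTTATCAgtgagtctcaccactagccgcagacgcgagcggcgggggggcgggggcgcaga
Wnt9b: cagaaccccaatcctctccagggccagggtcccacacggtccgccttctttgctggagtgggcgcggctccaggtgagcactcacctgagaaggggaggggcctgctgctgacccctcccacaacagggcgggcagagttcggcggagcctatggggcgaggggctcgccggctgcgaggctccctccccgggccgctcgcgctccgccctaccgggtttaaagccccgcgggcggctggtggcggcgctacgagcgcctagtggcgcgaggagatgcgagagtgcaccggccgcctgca
The Wnt2 window has 2 GATA matches, which begin at positions -246 and -9 from the start site, and the Wnt9b window has 0. Across all 32851 windows of the same length, 29.8% hold at least 1 such match. Neither window holds an ETS motif (CCGGAA) or a TCF/LEF motif (CTTTGA), searched on both strands, which 14.9% and 16.0% of all windows hold. G and C make up 65.7% of the Wnt2 window and 71.7% of the Wnt9b window, above the median of 52.7% over all windows. Among the members, 8 of 10 had at least 1 window in the table (11 windows in all), and Wnt5a and Rspo3 had none there. The other matches were a TCF/LEF match in 1 of 2 windows of Wnt11, a GATA and an ETS match in its other window, and a TCF/LEF match in 1 of 3 windows of Wnt5b. These are matches of letters only.

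The deposited values are log2 signals, so 1 unit is a 2-fold difference in signal, and levels of different genes are not compared because each comes from its own probes. Differences between states were tested with limma on all 6 arrays with age in the model, and p-values were adjusted over all 15526 genes with enough signal to be tested. All 10 members were among them. "Rose" and "fell" are used for an adjusted p under 0.05. With 1 array in each group, the error (SE) measures how far old and young cells disagreed over the states and is moderated by the spread of other genes; it is not a spread between repeated samples. The young PRI-724 array stood apart, with an interquartile range over tested genes of 1.71 log2 units against 2.11 to 2.43 on the other arrays.

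Some members were close to the signal of genes that liver cells are not known to express. Olfactory receptor genes served as that yardstick: 1105 of them were on the array, and the 95th percentile of their mean signals was 5.35. By this mark 3 members were dim (Wnt2b, with a mean of 4.95, Wnt6, 5.01, and Wnt5b, 5.15) and 7 were not. Rspo3 and Wnt4 were above the yardstick of the array itself on 6 of 6 arrays, Wnt9b and Wnt9a on 5, Wnt2, Wnt5a and Wnt11 on 4, Wnt5b and Wnt6 on 1, and Wnt2b on 0. Wnt2 was below it on both PRI-724 arrays (4.82 against 5.24 in old cells, and 5.41 against 5.89 in young cells), so the low side of its PRI-724 differences is a dim signal. Wnt5a was below it in young PRI-724-treated cells (5.17 against 5.89) and in young quiescent cells (5.27 against 5.53).

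**Figure D1:**
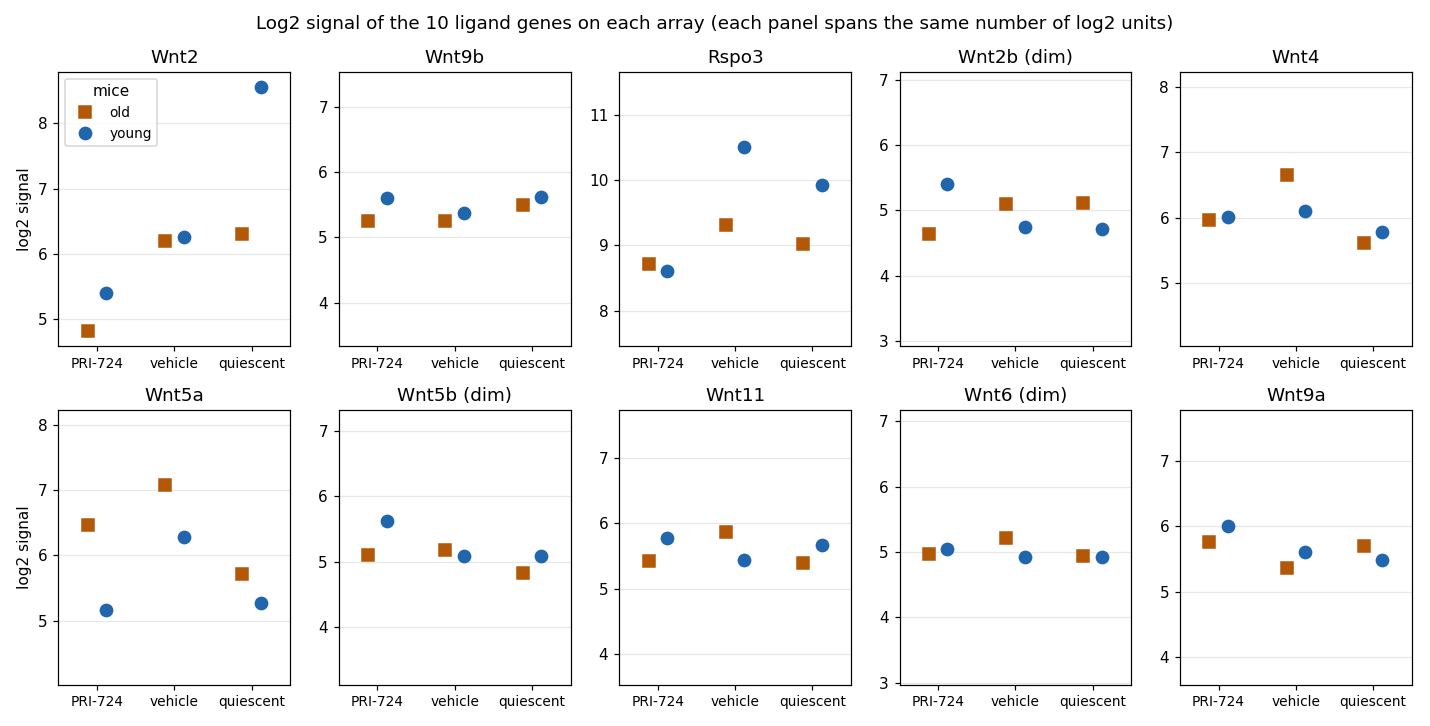
Log2 signal (vertical axis) of each of the 10 genes in PRI-724-treated, vehicle-treated and quiescent cells, with old mice as squares and young mice as circles and 1 array behind each point. Every panel spans the same number of log2 units, so that Wnt2, with a range of 3.74, and Rspo3 and Wnt5a, with 1.91 each, can be told from the nearly flat Wnt6, with 0.29.

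Among the ligands, Wnt2 spread most over the arrays. Its log2 signal was 4.82 (old) and 5.41 (young) in PRI-724-treated cells, 6.19 (old) and 6.26 (young) in vehicle-treated cells, and 6.31 (old) and 8.56 (young) in quiescent cells. Both PRI-724 arrays were lower than all other arrays, and the young quiescent array was far above the rest. Wnt2 fell in PRI-724-treated cells relative to quiescent cells by 2.32 on the log2 scale (SE 0.44, limma adjusted p = 0.0196), with -1.49 in the old pair and -3.15 in the young pair. As both PRI-724 arrays were below their yardstick, the fold is given as a bound. With those arrays set at the yardstick, the mean of Wnt2 over both ages was at least 3.66-fold lower in PRI-724-treated cells. The bound does not hold for each age: it joins 5.24 against 6.31 in old cells with 5.89 against 8.56 in young cells. Wnt2 was the only one of 10 members that fell in this comparison, and 0 rose, while 2.43% of all tested genes fell and 1.28% rose. Without the young quiescent array the difference was -1.36 (adjusted p = 0.0482), and it was -2.04 and missed the threshold when the young PRI-724 array was left out (adjusted p = 0.262). Leaving out the old PRI-724 array (-2.60, adjusted p = 0.186), dropping age from the model (adjusted p = 0.139) or cyclic loess normalization (adjusted p = 0.0615) also ended the call.

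The intermediate steps of Wnt2 did not pass the test. Vehicle-treated cells were at 6.23 on average and quiescent cells at 7.44, a difference of -1.21 (SE 0.44, adjusted p = 0.142), made up of -0.12 in old cells and -2.30 in young cells. PRI-724-treated cells averaged 5.12, which was -1.11 from vehicle-treated cells (SE 0.44, adjusted p = 0.266), with -1.37 in the old pair and -0.85 in the young pair. Without the old vehicle array that difference was -0.44 (adjusted p = 0.723), and without the young vehicle array -1.79 (adjusted p = 0.0284). The order of the means was thus quiescent, vehicle, PRI-724 from high to low, and only its ends differed past the threshold. Activation and the 2 PRI-724 comparisons share their arrays and are not independent. The activation difference of Wnt2 depended on single arrays: it passed without the old quiescent array (-2.17, adjusted p = 0.000104) and without the old vehicle array (-1.88, adjusted p = 0.0052), and was -0.25 without the young quiescent array (adjusted p = 0.883).

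Rspo3, the R-spondin that amplifies Wnt signals around the central vein, had a log2 signal of 8.71 (old) and 8.60 (young) in PRI-724-treated cells, 9.32 (old) and 10.51 (young) in vehicle-treated cells, and 9.02 (old) and 9.92 (young) in quiescent cells. The PRI-724 arrays were lower than all 4 other arrays. Against vehicle, the difference was -1.26 (2.39-fold, SE 0.32), with -0.61 in old cells and -1.91 in young cells, and its adjusted p of 0.0879 missed the threshold. That value hung on the choice of arrays: the adjusted p was 0.00572 when only the 4 arrays of both states were fitted, and 0.754 without the young PRI-724 array, with a difference of -0.68. Against quiescent cells the difference was -0.82 (SE 0.32, adjusted p = 0.235), and in activation it was 0.44 (SE 0.32, adjusted p = 0.465), positive at both ages (0.29 in old and 0.59 in young cells). Leaving out 1 array gave -1.39 to -0.24 against quiescent cells and 0.043 to 0.84 in activation.

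Wnt9b, the other ligand of central vein endothelium, stayed within 0.36 log2 units on all arrays. It measured 5.25 (old) and 5.61 (young) in PRI-724-treated cells, 5.25 (old) and 5.38 (young) in vehicle-treated cells, and 5.49 (old) and 5.62 (young) in quiescent cells. No state difference of Wnt9b exceeded its SE of 0.24 (0.12 against vehicle, -0.12 against quiescent cells, and -0.24 in activation), and its adjusted p-values lay between 0.610 and 0.900. Wnt2 and Rspo3 were thus lowest on both PRI-724 arrays, while Wnt9b was as low on the old vehicle array as on the old PRI-724 array. Wnt9b was close to the yardstick, at 5.25 against 5.24 (old PRI-724) and 5.25 against 5.18 (old vehicle). It was below it on the young PRI-724 array (5.61 against 5.89), and its widest margin was on the young vehicle array (5.38 against 5.06). With so little room to fall, Wnt9b cannot show whether the 3 endothelial-type ligands share a pattern.

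The median difference of the 3 endothelial-type ligands was -1.11 for PRI-724 minus vehicle, -0.82 for PRI-724 minus quiescent and -0.24 for activation. Over all tested genes the medians were -0.05, 0.03 and 0.04. With 3 ligands each median is the value of a single gene: Wnt2, Rspo3 and Wnt9b in that order. For PRI-724 minus vehicle the median of these ligands was -0.61 in the old pair and -0.85 in the young pair. The 5 mesenchymal-type ligands had medians of -0.06, 0.29 and 0.18 in the same comparisons. In the old pair their median for PRI-724 minus vehicle was -0.47, and in the young pair 0.33. That young value is Wnt11, which was below the yardstick on the young PRI-724 array (5.77 against 5.89). The yardstick of the young vehicle array was lower, at 5.06. In the young pair the dim Wnt2b and Wnt5b had 0.66 and 0.52, and Wnt5a and Wnt4 had -1.11 and -0.09. These medians describe short lists and were not tested.

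Markers of other liver cells differed between the same arrays. Liver sinusoidal endothelial markers, the scavenger receptors and other surface proteins of the fenestrated sinusoid wall, fell in PRI-724-treated relative to vehicle-treated cells for 11 of 13 tested genes (median difference -3.30), and pan-endothelial markers for 10 of 12 (median -2.24). In the old pair alone, without the young PRI-724 array, these medians were -2.53 and -1.60. The summed signal of the sinusoidal list was 1965 (old) and 1306 (young) in PRI-724-treated cells, 8938 (old) and 10939.5 (young) in vehicle-treated cells, and 5833 (old) and 15292 (young) in quiescent cells. Its highest sum was on the young quiescent array, where Wnt2 was also highest. The mean log2 signal of the list was nearly level on that array and the young vehicle array (9.50 and 9.33), while Wnt2 was 8.56 and 6.26. Among vehicle and quiescent arrays, the old quiescent one had the lowest mean of the list (8.20), but not the lowest Wnt2 signal (6.31). Central vein endothelial markers fell for 2 of 6 genes (median -1.02), and their sums were 1209.7 (old) and 585 (young) in PRI-724-treated cells, 2446 (old) and 2091 (young) in vehicle-treated cells, and 2607 (old) and 4884 (young) in quiescent cells. Thus Wnt2 and Rspo3 were lowest on the PRI-724 arrays, where the endothelial lists were lowest too. In such bulk samples, fewer cells of a type and less RNA per cell cannot be told apart, and the part of endothelial cells in the ligand values was not tested.

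Macrophage markers were low on the same arrays: 10 of 13 fell against vehicle (median -2.47, and -2.28 in the old pair), and their sums were 2026 (old) and 1379 (young) in PRI-724-treated cells, 8861 (old) and 9481 (young) in vehicle-treated cells, and 13260 (old) and 6095 (young) in quiescent cells. Of 13 quiescent stellate markers, 2 fell and 0 rose against vehicle (median -0.38, and -0.05 in the old pair), and 10 had a negative difference. On the young PRI-724 array 10 of the 13 were above the yardstick, and 13 on each of the other 5 arrays. Reln, a glycoprotein secreted by stellate cells, lay between 9.24 and 10.06 on all arrays, and Ecm1, an extracellular matrix protein, between 9.61 and 11.75. Cdh5, the cadherin of endothelial junctions, was 10.30 (old) and 8.30 (young) in PRI-724-treated cells, 11.87 (old) and 11.76 (young) in vehicle-treated cells, and 12.30 (old) and 12.73 (young) in quiescent cells. Cd68, a lysosomal protein of macrophages, was 9.80 (old) and 9.00 (young) in PRI-724-treated cells, 11.30 (old) and 11.19 (young) in vehicle-treated cells, and 11.61 (old) and 10.90 (young) in quiescent cells. Of 13 sinusoidal endothelial markers, 11 (old) and 8 (young) were above the yardstick of the array with PRI-724, and 13 on each of the other arrays. Of 13 macrophage markers, 9 (old) and 5 (young) were above it with PRI-724, and 12 or 13 on the others. Most markers of both cell types were thus above the yardstick in vehicle-treated and quiescent cells labelled as stellate cells, and a log2 scale has no 0. Mesothelial sums ranged over 850 to 1034 in PRI-724-treated cells, 934 to 982 in vehicle-treated cells and 359 to 421 in quiescent cells, and cholangiocyte sums stayed between 158 and 255 on all arrays.

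**Figure D2:**
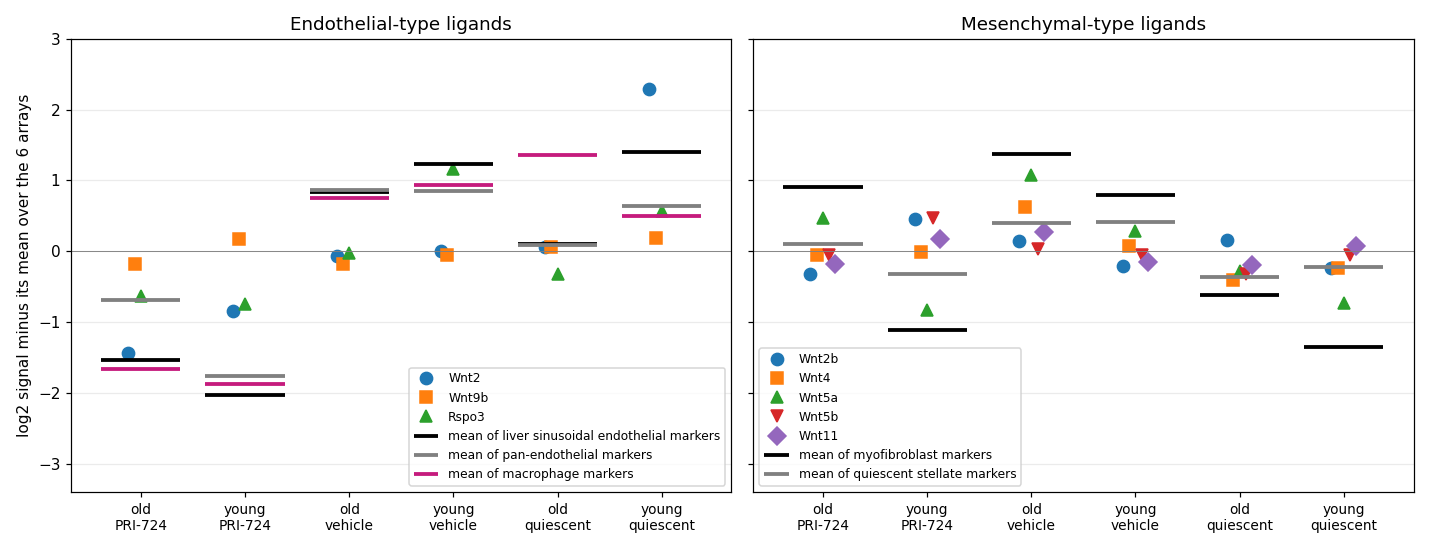
Log2 signal minus its mean over the 6 arrays (vertical axis) for each array (horizontal axis), with ligands as points and the means of marker lists as bars. On the left, Wnt2 and Rspo3 lie below 0 on both PRI-724 arrays, as do the endothelial and macrophage lists. Wnt9b, whose signal was close to the olfactory receptor yardstick, stays near 0. On the right, Wnt5a lies highest on the old vehicle array, where the myofibroblast list is highest too.

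Of the mesenchymal-type ligands, only Wnt5a passed a test. Wnt5a, which acts largely without beta-catenin through Ror2, Ryk and Frizzled receptors, had a log2 signal of 6.47 (old) and 5.17 (young) in PRI-724-treated cells, 7.08 (old) and 6.28 (young) in vehicle-treated cells, and 5.72 (old) and 5.27 (young) in quiescent cells. Both vehicle arrays were above both quiescent arrays, and in each state the old cells had the higher signal. Wnt5a rose in vehicle-treated relative to quiescent cells by 1.19, a 2.27-fold difference (SE 0.28, limma adjusted p = 0.0394), with 1.36 in the old pair and 1.01 in the young pair. The young quiescent value was below the yardstick of its array (5.27 against 5.53), so the low side of the young pair is a dim signal. Wnt5a was the 1 member of 10 that rose on activation, and 0 fell, while 4.61% of all tested genes rose and 1.26% fell. The call is close to the threshold: it held in 4 of 13 alternative settings, with differences of 0.89 to 1.48 and adjusted p-values of 0.0201 to 0.324. Leaving out the old PRI-724, young PRI-724, old vehicle, young vehicle or old quiescent array ended it (adjusted p = 0.055, 0.0553, 0.0686, 0.254 and 0.324), as did cyclic loess, a model without age, no filter, and only the compared states (adjusted p = 0.0809, 0.21, 0.0521 and 0.0552).

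After PRI-724, Wnt5a averaged 5.82, against 6.68 in vehicle-treated cells and 5.49 in quiescent cells. Its difference from vehicle was -0.86 (SE 0.28, adjusted p = 0.180), negative at both ages (-0.60 in old and -1.11 in young cells). Compared with quiescent cells it was 0.33 (SE 0.28, adjusted p = 0.674), with 0.75 in the old pair and -0.09 in the young pair. The mean of the PRI-724 arrays was thus between those of the other states, and its difference from neither of them passed the threshold.

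Markers of myofibroblasts, the contractile and matrix-producing form of the stellate cell, moved with Wnt5a in activation: 5 of 11 tested genes rose and 0 fell (median 1.73), and against vehicle 1 fell under PRI-724 (median -0.52 in the old pair and -2.30 in the young pair). Their sums were 7174 (old) and 2095 (young) in PRI-724-treated cells, 10976 (old) and 6934 (young) in vehicle-treated cells, and 4504 (old) and 1849.7 (young) in quiescent cells. Of the quiescent stellate markers, 6 of 13 rose and 1 fell in activation. Their sums were 4431 (old) and 3263 (young) in PRI-724-treated cells, 5605 (old) and 5838 (young) in vehicle-treated cells, and 3445 (old) and 5700.4 (young) in quiescent cells. Whether the share of myofibroblasts set the Wnt5a values was not tested.

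Wnt4, needed in the embryo for kidney tubules and the female reproductive tract, was measured at 5.97 (old) and 6.02 (young) in PRI-724-treated cells, 6.65 (old) and 6.10 (young) in vehicle-treated cells, and 5.62 (old) and 5.78 (young) in quiescent cells. Both vehicle arrays exceeded all others, and the old one stood above the young one. The activation difference was 0.68 (SE 0.27, adjusted p = 0.181), with 1.03 in old and 0.32 in young cells, so it missed the threshold. Against vehicle, PRI-724-treated cells differed by -0.68 in the old pair and -0.09 in the young pair (adjusted p = 0.536).

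Wnt11, a ligand of cell movements in the embryo, measured 5.42 (old) and 5.77 (young) in PRI-724-treated cells, 5.87 (old) and 5.45 (young) in vehicle-treated cells, and 5.40 (old) and 5.67 (young) in quiescent cells. The groups overlapped, and old and young cells differed in opposite directions in vehicle and in the other 2 states. Wnt5b, the close relative of Wnt5a, did not follow it: its signal was 5.10 (old) and 5.62 (young) in PRI-724-treated cells, 5.17 (old) and 5.09 (young) in vehicle-treated cells, and 4.82 (old) and 5.09 (young) in quiescent cells. Only on the young vehicle array was Wnt5b above the yardstick of that array, at 5.09 against 5.06. Its signal was highest on the young PRI-724 array, which also had the highest olfactory receptor percentile (5.89, against 5.06 to 5.53 on the others). Wnt2b, a relative of Wnt2 that acts through beta-catenin, gave 4.63 (old) and 5.41 (young) in PRI-724-treated cells, 5.10 (old) and 4.75 (young) in vehicle-treated cells, and 5.12 (old) and 4.71 (young) in quiescent cells. Those 3 genes had activation differences of 0.01 to 0.18 and PRI-724 minus vehicle differences of -0.06 to 0.22, and adjusted p-values from 0.518 to 0.992 over the 3 state comparisons.

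Wnt9a, known from joint formation in mice, measured 5.76 (old) and 6.00 (young) in PRI-724-treated cells, 5.36 (old) and 5.60 (young) in vehicle-treated cells, and 5.70 (old) and 5.49 (young) in quiescent cells. It was the member with the highest PRI-724 minus vehicle difference, 0.40 (SE 0.25), but the limma adjusted p was 0.487. The pairs were close to each other (0.40 in old and 0.39 in young cells). Between the young arrays, however, the yardstick rose more than Wnt9a, from 5.06 with vehicle to 5.89 with PRI-724. The dim Wnt6 was between 4.93 and 5.22 on all arrays, and no state difference of it passed (adjusted p-values of 0.781 to 0.951).

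In PRI-724 minus vehicle, 0 of 10 members rose and 0 fell by limma's adjusted p, while 0.271% of all tested genes rose and 1.93% fell. Before adjustment, 3 of 10 members had a p under 0.05 in that comparison, 3 in activation and 2 in PRI-724 minus quiescent, beside 15.5%, 22.4% and 16.3% of all tested genes. Old and young pairs had the same sign for 7 of 10 members in activation, 6 of 10 in PRI-724 minus vehicle and 8 of 10 in PRI-724 minus quiescent, beside 74.0%, 60.8% and 55.7% of all tested genes. The members that were lower at both ages after PRI-724 than with vehicle were Wnt2, Rspo3, Wnt5a and Wnt4.

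**Figure D3:**
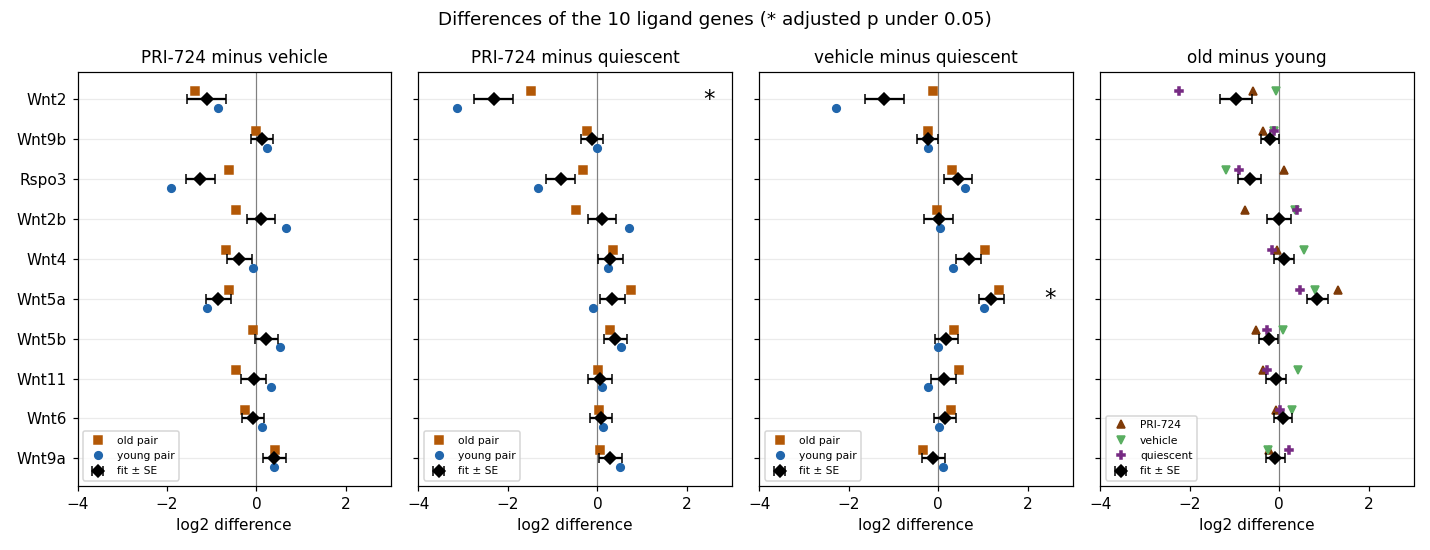
Log2 difference (horizontal axis) of each gene in the 4 comparisons, with the fitted value and its SE as diamonds with bars and the single pairs or states as coloured points. The asterisks stand at Wnt2 in PRI-724 minus quiescent and at Wnt5a in vehicle minus quiescent, and the pairs of Wnt2 in vehicle minus quiescent lie far apart (-0.12 in old and -2.30 in young cells).

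**Figure D4:**
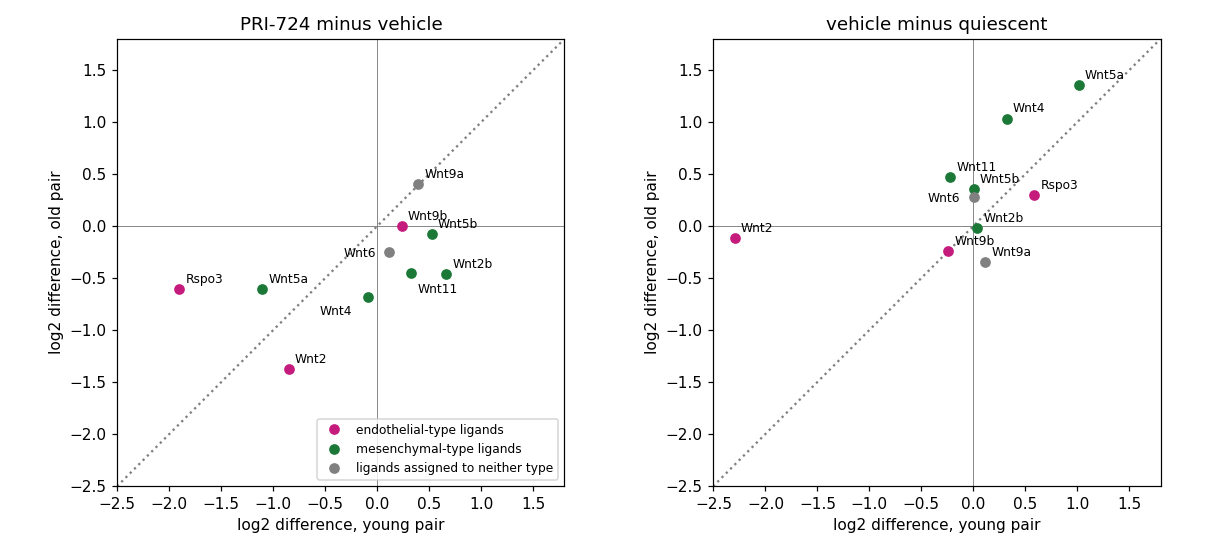
Log2 difference of the old pair (vertical axis) against that of the young pair (horizontal axis) for each gene, in PRI-724 minus vehicle on the left and vehicle minus quiescent on the right; the dotted line marks equal values. Wnt2, Rspo3, Wnt5a and Wnt4 lie at the lower left of the left panel, and Wnt5a and Wnt4 lie in the upper right of the right panel with Rspo3.

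Between ages, no member passed the test: 0 of 10 rose and 0 fell in old relative to young cells by limma, while 0.264% of all tested genes rose and 0.251% fell. Before adjustment 3 members had a p under 0.05 between ages, beside 10.4% of all tested genes. Wnt5a was higher in old cells in each state, by 1.30 with PRI-724, 0.80 with vehicle and 0.46 in quiescent cells, with a fitted difference of 0.85 (SE 0.23, adjusted p = 0.192). Wnt2 differed between old and young cells by -0.59 with PRI-724, -0.07 with vehicle and -2.24 in quiescent cells. With PRI-724 both of its signals were below the yardstick (4.82 against 5.24 in old and 5.41 against 5.89 in young cells). That pair therefore does not measure an age difference of Wnt2, and the vehicle pair was nearly level. The fitted age difference of Wnt2 was -0.97 (SE 0.36, limma adjusted p = 0.385). That value hung on quiescent cells: without the old or the young quiescent array it was -0.33, and without the old or the young vehicle array it was -1.42 and passed (adjusted p = 0.0142 and 0.0144). Rspo3 was lower in old cells with vehicle (-1.19) and in quiescent cells (-0.90) and nearly level with PRI-724 (0.11), and its fitted difference was -0.66 (SE 0.26, adjusted p = 0.422). Wnt9b was lower in old cells by 0.12 to 0.36 in all 3 states (adjusted p = 0.791).

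The median age difference of the endothelial-type ligands was -0.66 and that of the mesenchymal-type ligands -0.01, beside 0.04 over all tested genes. Hepatocyte markers rose in old cells for 6 of 11 genes (median 2.31), and their sums were 2642 (old) and 1138 (young) with PRI-724, 2308 (old) and 415 (young) with vehicle, and 11187 (old) and 1288 (young) in quiescent cells. Of the myofibroblast markers 2 of 11 rose in old cells, Tnc and Tagln. The age difference was positive for all 11 (median 1.01), and 8 had a limma p under 0.05 before adjustment. None of 13 sinusoidal endothelial markers passed between ages, and 1 had a p under 0.05 before adjustment. The part of hepatocyte or myofibroblast RNA in the age differences of the ligands was not tested.

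By Pearson's correlation over the 6 arrays, among 5495 tested genes with a range of at least 1 log2 unit, the genes most like Wnt2 were Il15ra (0.999), a subunit of the interleukin-15 receptor, Pde1b (0.996), a phosphodiesterase, Ackr2 (0.995), a scavenging chemokine receptor, Il21r (0.995), the interleukin-21 receptor, and Atp10a (0.988), a lipid flippase. Those most like Wnt5a were Snai1 (0.998), a transcriptional repressor, Hspg2 (0.997), which encodes the basement membrane proteoglycan perlecan, Tln1 (0.997), the integrin-binding protein talin, Sh3bgrl3 (0.995) and Dthd1 (0.995). All genes share the same 6 arrays, and 46 genes correlated above 0.95 with Wnt2 and 117 with Wnt5a. These values only describe how the genes were ranked.

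Genes that process, carry or release Wnt proteins after synthesis formed a separate list. Of its 8 tested genes, 3 rose and 0 fell in activation, 2 rose against quiescent cells under PRI-724, and 0 passed for PRI-724 minus vehicle, where limma gave 0 with a p under 0.05 before adjustment as well. Wls, the carrier that takes Wnt proteins to the cell surface, was 9.05 (old) and 8.54 (young) with PRI-724, 9.23 (old) and 9.21 (young) with vehicle, and 7.47 (old) and 7.53 (young) in quiescent cells. On activation, Wls rose by 1.72 (SE 0.28, adjusted p = 0.0102), and in PRI-724-treated cells it rose by 1.29 over quiescent cells (adjusted p = 0.0337). The sulfatases Sulf1 and Sulf2, which trim heparan sulfate and free bound Wnt proteins, rose on activation by 1.72 and 2.09 (adjusted p = 0.0236 and 0.00563). Sulf2 was also higher in PRI-724-treated than in quiescent cells, by 1.56 (adjusted p = 0.0129), and in old cells, by 1.29 (adjusted p = 0.0436). Porcn, the acyltransferase that attaches the lipid to every Wnt protein, had an activation difference of 0.20 (SE 0.27, adjusted p = 0.712).

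Of 14 further ligand genes, all of them Wnt or R-spondin genes except Ndp, which encodes norrin, 9 had enough signal to be tested. By limma, 0 of these passed in any comparison or had a p under 0.05 before adjustment. Their medians were -0.16 in activation and 0.26 for PRI-724 minus vehicle. For the latter, the median was -0.12 in the old pair and 0.40 in the young pair. On the receiving side, 5 of 16 tested Wnt receptor genes rose in activation: Fzd1, Fzd6, Ryk, Mcam and Reck, by 1.06, 1.30, 1.21, 1.58 and 1.25. Mcam fell with PRI-724 against vehicle (-1.73, adjusted p = 0.0396), Fzd4 fell against quiescent cells (-2.13, adjusted p = 0.036), and Adgra2 rose in old cells (1.46, adjusted p = 0.0213). Of 5 tested genes for R-spondin receptors and their targets, 0 passed in any comparison by limma and 0 had a p under 0.05 before adjustment. Lgr5, the best known R-spondin receptor, was too dim to be tested, at 4.05 to 4.91.

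Of 12 secreted Wnt antagonists only Frzb, a decoy that binds Wnt proteins, passed, with an activation rise of 1.45 (SE 0.34, adjusted p = 0.0399). It was 9.78 (old) and 8.29 (young) with PRI-724, 10.52 (old) and 10.64 (young) with vehicle, and 9.46 (old) and 8.80 (young) in quiescent cells. Of 15 tested beta-catenin target genes, Bmp4 rose in activation (2.16, adjusted p = 0.00643), Myc fell (-1.13, adjusted p = 0.0256), and 0 passed for PRI-724 minus vehicle, where 5 had a p under 0.05 before adjustment. Axin2, the feedback inhibitor commonly read as a beta-catenin reporter, was 5.69 (old) and 6.55 (young) with PRI-724, 5.41 (old) and 5.73 (young) with vehicle, and 5.99 (old) and 5.87 (young) in quiescent cells. Its activation difference was -0.36 (SE 0.29, adjusted p = 0.507) and its PRI-724 minus vehicle difference 0.55 (SE 0.29, adjusted p = 0.402). The larger step of Axin2 was between the young arrays, where the olfactory receptor yardstick also rose, from 5.06 with vehicle to 5.89 with PRI-724. Nkd1, a further feedback inhibitor, had 0.71 and -0.26 in the same comparisons (adjusted p = 0.162 and 0.676), and Lef1 was too dim to be tested, at 4.47 to 4.60.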

How the data were processed

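RNA of 6 samples, 1 for each of 3 states and 2 ages, was measured on 6 Affymetrix arrays. The deposited log2 signals were made by the authors with Affymetrix Expression Console and RMA, per the submitters' processing notes; no version or setting is given in the sources used here. Per the labels' protocols, RNeasy and GeneChip WT PLUS kits were used. With 6 arrays, the number of arrays limits the precision.

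The platform's annotation assigned a single symbol to 23521 of 41345 probe sets, more than 1 to 1814 and no symbol to 16010; the single-symbol kind was used. A gene was represented by its probe set with the highest mean. The 30% of genes with the lowest mean (log2 signal under 4.70) were left out. limma 3.58.1 (R 4.3.3) fitted state and age to all 6 arrays with moderated variances and an intensity trend, leaving 2 residual degrees of freedom (prior 7.76), and p-values were adjusted by Benjamini-Hochberg over 15526 genes with a threshold of 0.05. The 4 comparisons set PRI-724 against vehicle and against quiescent cells, vehicle against quiescent cells (activation), and old against young cells. The age difference of a response was not tested. The model was tested on simulated data.

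All 10 members are named. From the pathway lists, genes past the threshold in any comparison are named, together with Axin2, Lgr5, Lef1, Nkd1, Porcn and Wls. From the marker lists, up to 3 genes with the highest mean are named. Likeness covers the members past the threshold. The members and lists were chosen with earlier results of these data known, and the mark for dim genes was chosen after the values were seen. Promoters and names came from RefSeq tables of GRCm38.p6, of which the promoter table held 8 of 10 members. Alternatives were no filter, the lowest 50% left out, the mean of all probe sets, a model with a flat variance or without the covariate, a fit to the compared states alone, cyclic loess, and each array left out in turn. Python 3.11.15 with pandas 2.3.3 and matplotlib 3.10.9 made the figures.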

Additional observations from a re-analysis of the deposited data

Results flagged for a closer look

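For 9 of 30 state differences of the members, the old pair and the young pair had opposite signs, and over all tested genes 36.5% of such differences did not have the same sign in both pairs. The difference between ages was not tested, as each pair holds 1 array per state. In activation these were Wnt2b (-0.020 in the old pair and 0.04 in the young pair), Wnt11 (0.47 and -0.22) and Wnt9a (-0.34 and 0.12). For PRI-724 minus vehicle they were Wnt2b (-0.47 in the old pair and 0.66 in the young pair), Wnt5b (-0.077 and 0.52), Wnt11 (-0.45 and 0.33) and Wnt6 (-0.25 and 0.11). For PRI-724 minus quiescent they were Wnt2b (-0.49 in the old pair and 0.70 in the young pair) and Wnt5a (0.75 and -0.09). In 3 of the 9 both pairs exceeded the SE of the fit: Wnt2b in both PRI-724 comparisons and Wnt11 in PRI-724 minus vehicle. Wnt2b, Wnt5b and Wnt6 are dim, and Wnt11 was below the yardstick on the young PRI-724 array (5.77 against 5.89). In PRI-724 minus quiescent, both arrays of the young pair of Wnt5a were below theirs (5.17 against 5.89 and 5.27 against 5.53). The young PRI-724 array, which enters the young pair of 6 of the 9, had the narrowest spread of signals.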

How the results depend on the processing

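With 1 array in each group, 6 arrays and 2 residual degrees of freedom, single arrays decide many calls, and other probe sets could not be tried because each member has 1. A difference could change only with cyclic loess or without an array that enters it. The other alternatives return the same difference by design, so its direction there was fixed in advance. Of 494 alternative values of single members, 436 kept their direction and their side of the threshold, 13 lost and 12 gained the call, and 33 changed sign; no value that changed sign was past the threshold. The count of 1 member past the threshold in activation became 0 with cyclic loess, no age in the model, no filter or only the compared states (limma, with 2, 2, 3 and 2 at a p under 0.05 before adjustment), and that of 1 in PRI-724 minus quiescent became 0 with cyclic loess (2 before adjustment) or no age in the model (1 before adjustment). In PRI-724 minus vehicle 0 became 2 (Wnt2 and Rspo3) with only the compared states. Leaving out 1 array gave 0 to 1 member in activation, 0 to 2 in PRI-724 minus vehicle, 0 to 1 in PRI-724 minus quiescent and 0 to 1 in old minus young.

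Wnt2 in PRI-724 minus quiescent was past the threshold in 9 of 13 alternatives (-3.28 to -1.36, adjusted p 4.33e-11 to 0.262); it was lost with cyclic loess (adjusted p = 0.0615), no age in the model (0.139), and without the old or the young PRI-724 array (0.186 and 0.262). In PRI-724 minus vehicle, Wnt2 and Rspo3 each passed in 4 of 13 alternatives.

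Over all genes, the number past the threshold in activation (911) was 482 with cyclic loess, 114 without age, 481 with only the compared states and 318 to 1230 without 1 array. For PRI-724 minus vehicle (341) it was 103, 91, 965 and 0 to 968. For PRI-724 minus quiescent (577) it was 217 without age, 1064 with only the compared states and 0 to 1053 without 1 array. For old minus young (80) it was 7 with cyclic loess, 0 without state and 0 to 343 without 1 array. The counts of 0 came without the young PRI-724 array (997, 2763 and 1644 genes with a p under 0.05 before adjustment in the last 3 comparisons), without the old PRI-724 array in old minus young (1642) and without state (581).

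With cyclic loess Wnt2b changed sign to 0.081 in old minus young and -0.11 in PRI-724 minus vehicle. Without 1 array, the activation difference ranged over -0.24 to 0.49 for Wnt11, -0.30 to 0.32 for Wnt2b, -0.060 to 0.42 for Wnt5b, -0.019 to 0.30 for Wnt6 and -0.34 to 0.11 for Wnt9a. PRI-724 minus vehicle ranged over -0.43 to 0.30 for Wnt11, -0.48 to 0.68 for Wnt2b, -0.015 to 0.46 for Wnt5b and -0.23 to 0.091 for Wnt6. PRI-724 minus quiescent ranged over -0.16 to 0.28 for Wnt11, -0.47 to 0.68 for Wnt2b, -0.0079 to 0.67 for Wnt5a and -0.042 to 0.19 for Wnt6. Old minus young ranged over -0.31 to 0.077 for Wnt11, -0.21 to 0.38 for Wnt2b, -0.11 to 0.25 for Wnt4 and -0.0295 to 0.15 for Wnt6. Why these values moved was not tested.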
